A study of Mus musculus with 9 samples.

Results

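The forkhead (Fox) genes encode transcription factors that share the winged-helix DNA-binding domain and are grouped by letter into subfamilies. They were read here in mouse renal vesicles, the first epithelial stage of the nephron, from E12.5 embryonic kidneys. The members were all genes whose symbol has the form Fox, a letter from a to s, and a number, and which had at least 1 probe set annotated to that gene alone, with Foxc1, Foxc2 and Foxd1 left out. This gave 34 genes in 16 subfamilies, of 18193 genes on the array, read by 78 of its 45101 probe sets. Where a gene had several probe sets, the one brightest on average over the 9 arrays stood for it.

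Wild-type vesicles (5 arrays) were compared with vesicles of Lim1 mutants (4 arrays). Lim1, now Lhx1, encodes a LIM homeodomain factor needed in the early nephron. The mutants carry the Lim1 mutation and the wild type does not, and the labels name no other allele, treatment, strain or sex. The labels do not state the type of allele, whether the mutants were homozygous, or whether the mutation was limited to some cells. A sample was taken by laser capture microdissection and held about 30 to 50 vesicles, its RNA was amplified in 2 rounds, and the samples are described as biologically independent.

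Forkhead factors act at several steps of kidney development. Foxc1, Foxc2, Foxd1 and Foxd2 are known from the mesenchyme of the kidney, Foxi1 from intercalated cells of the collecting duct and Foxj1 from cells with motile cilia. The FOXO factors are held out of the nucleus by insulin and growth factor signalling through PI3 kinase and Akt, while FOXM1 drives genes of mitosis. FOXP and FOXK factors act widely as repressors.

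The mutated gene and the labelled structure were examined first. At its dimmer probe set Lhx1 read 2327 to 17587 on the wild-type arrays and 6.88 to 10.5 on the mutant arrays (log2 difference -6.64 ± 0.57, limma adjusted p = 0.00329). At the brighter one it read 1696 to 18555 and 4108 to 4951 (-0.86 ± 0.58, adjusted p = 0.833). The altered stretch of Lhx1 is not given in the labels. All 11 measured vesicle genes lay above the filter on dim probe sets, Wnt4 with wild-type and mutant means of 28137 and 27893 and Jag1 with 36687 and 23653. Markers of neighbouring cells were also read, such as Foxd1 of the stroma (3436 and 3495) and Kdr of endothelium (1818 and 504). Differences lay above 0 for 3 of 11 ureteric bud genes (median log2 difference -0.88), 5 of 11 stromal genes (-0.27) and 0 of 12 endothelial genes (-0.85). Over all genes 53.6% lay above 0, with a median of 0.043. The part of bud cells in the forkhead values was not tested. In captured tissue, fewer cells of a type and less RNA per cell cannot be told apart. Wild-type arrays 3 and 1 correlated least with the other arrays, with mean r of 0.783 and 0.802 across probe sets, against 0.826 to 0.864 for the other 7.

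No forkhead gene passed the test between the groups. Intensities were compared as log2(signal + 42.4), where 42.4 is the 25th percentile of all signals, after quantile normalisation. Probe sets with a mean below the 40th percentile were not tested. Of the 34 genes, 20 lay above this filter and 14 below. None of the 20 reached an adjusted p of 0.05 in limma, where 0.0333% of all probe sets tested did, and the lowest adjusted p of a member was 0.715. At an unadjusted p under 0.05 there were 4 members, Foxd2, Foxn3, Foxp4 and Foxm1, all higher in the mutants, where 4.86% of all genes tested were higher at that level. No member was lower at that level, against 2.98% of all genes tested. This count depended on single arrays: it was 0 without mutant array 3, 1 without mutant array 2 or wild-type array 4, 2 without mutant array 1 or wild-type array 2 or 5, and 4 without any other array. It was 2 with the arrays centred on their medians and 1, Foxp4, with genes averaged over probe sets. The Foxp4 average takes in a probe set that was dim on all wild-type arrays, described below. In simulated data of this size, 50 probe sets each were altered by 1, 2, 3 and 4 on the log2 scale, with independent noise. The test recovered 2 of 50 altered by 1 and 22 of 50 altered by 2, with 9 false calls over all probe sets. Many large alterations ease the adjusted cutoff, so these shares do not carry over to the real data. An absent call does not show an absent difference.

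Of the 34 genes, 22 had differences above 0 and 12 below, or 64.7% above against 53.6% of all 18193 genes. Without wild-type array 1 the count was 19, or 55.9% against 54.2% of all genes, and it ranged from 19 to 24 with single arrays left out. The median difference of the 34 was 0.15, against 0.043 over all genes. Without overlap between the groups, with all 4 mutants above all 5 wild-type arrays, were 3 of the 34 (8.82%), Foxd2, Foxm1 and Foxp4, against 1.47% of all genes. No member had all mutants below the wild type, against 0.945% of all genes. These shares describe the members, and none was tested against the other genes. Both L genes and all 3 O genes lay above 0, both F genes and the single H, Q and S genes below, and the B, E, I and S subfamilies had no gene above the filter. Beside these counts, the podocyte marker list (median log2 deviation of its genes from their means over the arrays) lay at -0.55 to -0.033 on the wild-type and -0.051 to 0.68 on the mutant arrays, with 7 of its 8 genes above the filter, and that of endothelium, with 10 of 12, at -0.57 to 1.68 and -0.83 to -0.05. The podocyte list includes Foxc2 (difference 1.59), a forkhead gene left out as a member. It shares Wt1 with the cap mesenchyme list and Tcf21 with the stromal list. Nphs1 was dim, with means of 96.7 and 152, as was Synpo, its gene below the filter, with 87.9 and 108. The part of podocytes and endothelial cells in the member values was not tested.

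**Figure D1:**
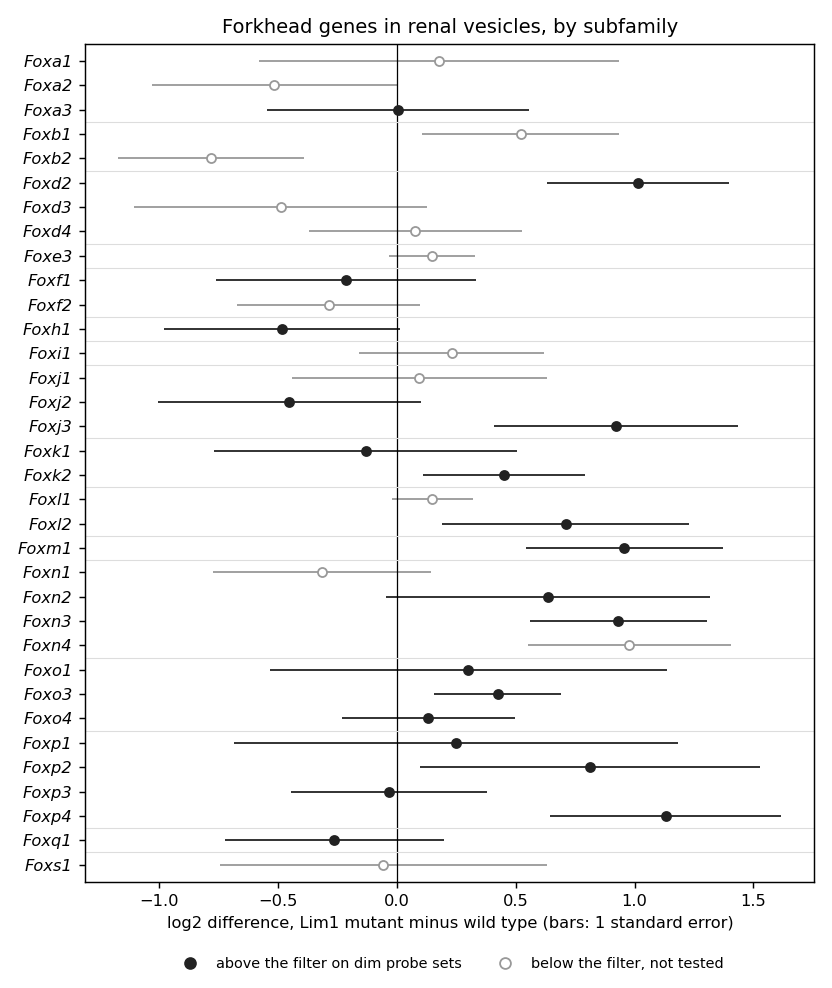
Log2 difference, Lim1 mutant minus wild type, of the 34 forkhead genes ordered by subfamily letter, each through its brightest probe set, with bars of 1 standard error. Filled points are the 20 genes above the filter and open points the 14 below it. Foxp4, Foxd2, Foxn4, Foxm1, Foxn3 and Foxj3 have the largest differences, between 0.92 and 1.13, and no member lies below -0.78.

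Foxd2, a factor of kidney mesenchyme whose loss is known to disturb kidney growth, had the lowest adjusted p of the family. It read 550.1, 1201, 816, 686 and 985 on wild-type arrays 1 to 5 and 1396, 2385, 1741 and 1552 on mutant arrays 1 to 4. All mutant arrays were above the highest wild-type array, number 2. Group means were 848 ± 255 for wild-type arrays (± SD, n = 5) and 1769 ± 434 for mutant arrays (n = 4), and the fitted difference was 1.01 ± 0.38 on the log2 scale (± standard error, as for all differences; limma adjusted p = 0.715, unadjusted p = 0.0217). The exact two-sided permutation p over all splits of the arrays was 0.00794, the smallest they can give, and Foxd2 was singled out for its lack of overlap. Exact p values here and below are not adjusted for the number of members. Of the members given in full, only exact p values under 0.05 are printed. The others ran from 0.17 for Foxj3 to 0.94 for Foxp3. For Foxd2 and, below, Foxp4, Foxm1 and Cited2, lack of overlap by itself makes the exact p small. It is no separate support for these genes. Its other probe set was dim, at 7.39 to 195 on wild-type and 25.5 to 130.2 on mutant arrays, and was not tested. Averaged over both probe sets, the difference was 0.56 and the groups overlapped.

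Stroma and cap mesenchyme adjoin the vesicle, and their markers were read beside Foxd2. Over 11 stromal genes, the median deviation from each gene's mean was -0.55 to 1.61 (log2) on the wild-type arrays and -0.84 to 1.04 on the mutant arrays, all 11 being above the filter. Mutant array 2, where Foxd2 was highest, had 1.04, and wild-type array 3, at 1.61, had a Foxd2 signal of 816. Over 10 cap mesenchyme genes the range was -0.71 to 0.39 and -0.10 to 0.05, with Cited1 below the filter. That median covered differences of both signs, 5 above 0 and 5 below, from -1.26 ± 0.63 for Osr1 to 2.18 ± 0.71 for Meox1. Meox1 was the 1 gene of the 10 without overlap (10%), against 1.47% of all genes with the mutants higher. At an unadjusted limma p under 0.05, 2 of the 9 above the filter were higher (22.2%), against 4.86% of all genes tested. The part of stromal and cap mesenchyme cells in the Foxd2 values was not tested.

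Foxp4, a FOXP repressor known from lung and gut epithelium, had the largest difference of the 34. It read 311, 358, 309, 152 and 356 on wild-type arrays 1 to 5 and 515, 1328, 811 and 555 on mutant arrays 1 to 4. Mutant array 2 was highest and wild-type array 4 lowest, and the groups did not overlap. The means were 297 ± 84.4 and 802 ± 374 (log2 difference 1.13 ± 0.49, adjusted p = 0.737, exact permutation p = 0.00794). The other probe sets of Foxp4 disagreed with each other. The dimmest of the 3 read 24.4, 37.8, 24.8, 25.5 and 36.5 on the wild-type arrays and 149.6, 984, 770.2 and 268 on the mutant arrays. All its wild-type readings were below 42.4, so it passed the filter through the mutants alone, and its difference of 2.65 is given as a description, with no test. The remaining one read 257 to 583 and 337 to 639.9, with overlap and a difference of 0.06 ± 0.44 (adjusted p = 0.989).

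The start-site regions of Foxd2 and Foxp4 are shown because these genes separated the groups and have an entry in the promoter table used; Foxm1 also separated them and is named only. Each runs from 250 bases before the annotated start to 50 after it (RefSeq, GRCm38.p6), 5′ to 3′ on the minus strand. Capitals mark GC boxes, searched as GGGCGG on both strands.
Foxd2, chr4:114908849-114909148: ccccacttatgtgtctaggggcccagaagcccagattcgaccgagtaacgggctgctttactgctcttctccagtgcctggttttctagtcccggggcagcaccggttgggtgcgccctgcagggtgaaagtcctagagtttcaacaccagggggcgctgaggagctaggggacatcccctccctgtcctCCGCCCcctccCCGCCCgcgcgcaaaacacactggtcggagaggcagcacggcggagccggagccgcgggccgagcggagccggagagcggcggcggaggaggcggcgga
Foxp4, chr17:47924583-47924882: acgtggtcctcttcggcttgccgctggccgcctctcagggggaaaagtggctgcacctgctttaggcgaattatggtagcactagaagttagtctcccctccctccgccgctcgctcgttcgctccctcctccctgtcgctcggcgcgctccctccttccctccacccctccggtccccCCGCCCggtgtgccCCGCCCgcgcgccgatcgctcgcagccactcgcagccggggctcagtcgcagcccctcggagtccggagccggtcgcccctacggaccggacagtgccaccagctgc

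Both regions were rich in G and C, at 67.7% and 70.3%, against a median of 63.0% over 27 start-site regions of 22 members and 52.7% over all 32851 regions. Each held 2 GC boxes. A GC box stood in 19 of the 27 forkhead regions (70.4%) and in 35.7% of all regions of this length. The forkhead core TGTTTA, the homeodomain core TAATTA, the cell cycle element TTTGAA and the CCAAT box, searched on both strands, were in neither sequence. TGTTTA stood in 5 of the 27 forkhead regions, those of Foxp1, Foxa1 and Foxp3, against 13.4% of all regions, and TAATTA in 2, of Foxp1 and Foxn1, against 5.29%. TTTGAA was in 3 of the 27 against 17.9% of all, and CCAAT in 11 against 37.4%. A match describes letters and does not show binding.

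Foxm1, the activator of genes of mitosis, was the last of the 3 genes without overlap. It read 1392, 939, 1148, 555 and 1009 on wild-type arrays 1 to 5 and 2154, 2592, 1477 and 1545 on mutant arrays 1 to 4, so that wild-type array 1 came close to mutant array 3. The means were 1009 ± 307 and 1942 ± 529 (log2 difference 0.96 ± 0.42, adjusted p = 0.737, exact permutation p = 0.0159). With the arrays centred on their medians in place of quantile normalisation the groups overlapped, and the difference was 0.84. A second probe set gave 1.19 ± 0.48 (adjusted p = 0.722), with wild-type arrays at 410.3 to 1054 and mutant arrays at 1133 to 2649.6, which overlapped once the arrays were quantile normalised. Another, of similar signal, gave -0.01 ± 0.42 (adjusted p = 0.998), with 735 to 1358 and 615 to 1382. The last of its probe sets was dim, with means of 18.4 and 19.5. The first and second probe sets of Foxm1 thus read higher in the mutants and that other one did not.

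**Figure D2:**
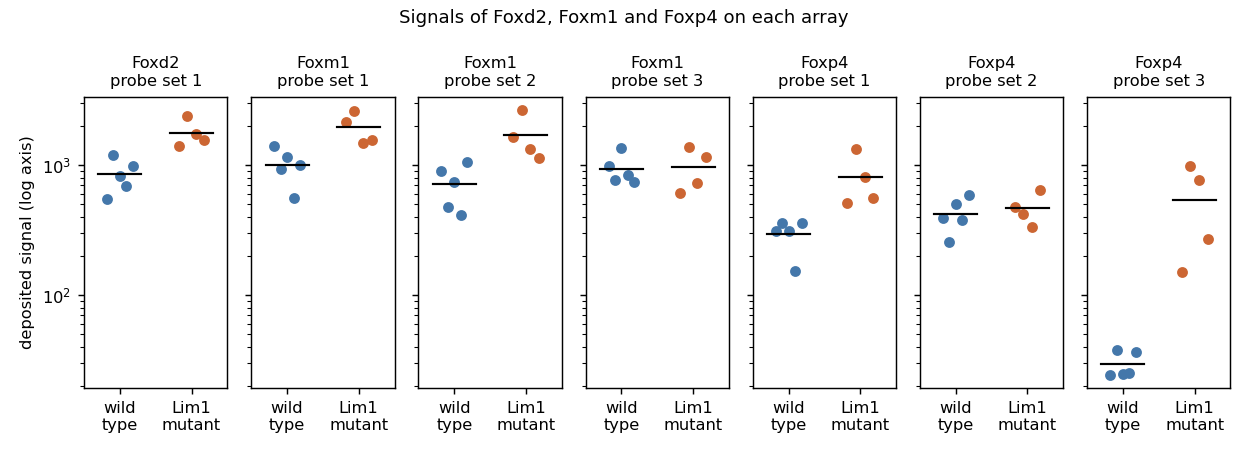
Deposited signals on each of the 5 wild-type and 4 Lim1 mutant arrays (log axis, horizontal lines are means) for the probe sets of Foxd2, Foxm1 and Foxp4 above the filter, numbered within a gene from the highest mean signal. Mutant points lie above all wild-type points for Foxd2, Foxm1 probe sets 1 and 2 and Foxp4 probe sets 1 and 3, while Foxm1 probe set 3 and Foxp4 probe set 2 overlap.

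FOXM1 is known to drive genes of mitosis such as Plk1 and Aurka. Of 21 measured FOXM1 targets and partners none passed in limma in either direction, 13 had differences above 0 and 8 below, and the median was 0.047, against 0.043 over all genes. Plk1, the mitotic kinase, had means of 4469 and 4375 (log2 difference 0.00 ± 0.26), and Top2a, a topoisomerase of dividing cells, 31229 and 33274 (0.08 ± 0.16). Both were chosen after their values were seen. Aurka, the Aurora A kinase, was the 1 gene of the 21 without overlap (4.76%), against 1.47% of all genes with the mutants higher. It read 2537, 3734, 1869, 2364 and 3546 across wild-type arrays and 4019, 4263, 4339 and 4484 across mutant arrays (log2 difference 0.66 ± 0.29, adjusted p = 0.748).

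In the N subfamily, Foxn3, a repressor known as a checkpoint suppressor, read 3263, 5024, 2917, 1669.9 and 2588 on the wild-type arrays and 6705, 3744, 8302 and 4467 on the mutant arrays. Wild-type array 2 lay above mutant arrays 2 and 4, and the groups overlapped. The difference was 0.93 ± 0.37 (adjusted p = 0.722, exact permutation p = 0.0397), and without wild-type array 2 the groups did not overlap. Its other 2 tested probe sets gave differences of -0.35 and 1.53. Foxn2, its close relative, read 1251, 3085, 257, 4757 and 3293 on the wild-type and 2548, 2474, 2529 and 4162 on the mutant arrays. Wild-type array 3 was far below the rest there, and the difference was 0.63 ± 0.68 (adjusted p = 0.905), which was 0.013 without that array and -0.34 without wild-type arrays 1 and 3. Foxn4, known from retina and multiciliated cells, was dim and not tested, with 51.9, 104, 18.2, 39.2 and 108 on wild-type and 220.1, 111, 209.7 and 154 on mutant arrays. Its deposited signals did not overlap, by the small gap between wild-type array 5 and mutant array 2, but overlapped after quantile normalisation (0.98). Foxn4 was singled out after its values were seen. Foxn1, the thymic epithelial factor, was dim, with means of 104 and 88.7.

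In the J subfamily, Foxj3 read 7960.5, 7329, 1937, 10647 and 13140.2 on the wild-type arrays and 8926, 17900.3, 21784 and 8649 on the mutant arrays. Wild-type array 3 was lowest and mutant arrays 2 and 3 highest, and the other arrays overlapped. The difference was 0.92 ± 0.51 (adjusted p = 0.795), 0.47 without wild-type array 3, and 0.93 ± 1.23 at a second probe set, where the wild-type arrays spanned 96.0 to 8873. Foxj2, its relative, read 2391, 839, 364, 1259 and 2035 on the wild-type and 714, 574, 1325 and 939.5 on the mutant arrays, with full overlap and a difference of -0.45 ± 0.55 (adjusted p = 0.919). Foxj1, the activator of motile cilium genes, was dim, at 301, 107, 26.6, 36.2 and 23.8 on wild-type and 80.2, 76.8, 82.4 and 115 on mutant arrays. It lay below the filter, and wild-type array 1 alone read above 115. Of 22 measured motile cilium genes 11 lay above the filter, none passed in limma, 12 had differences above 0 and the median was 0.06.

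Among the other FOXP genes, wild-type array 1 stood apart for Foxp1 and Foxp2. Foxp1, known from lymphocytes and heart, read 229, 4365, 8434, 13255 and 4122 on the wild-type arrays and 9480.4, 2611, 2084 and 6312 on the mutant arrays. That array lay far below the others, and the highest wild-type array was 57.8 times the lowest. The difference was 0.25 ± 0.93 (adjusted p = 0.98), and without wild-type array 1 it was -0.63. Foxp2, best known for its part in speech and brain development, read 49.9, 1142, 977, 739 and 555 on the wild-type and 1757, 502, 782 and 1053 on the mutant arrays. Here too wild-type array 1 was lowest, and the difference of 0.81 ± 0.72 (adjusted p = 0.881) was 0.19 without it. Foxp3, the factor of regulatory T cells, was dim, at 58.6, 114, 107, 183 and 191 on the wild-type and 131, 77.2, 214 and 115 on the mutant arrays (-0.04 ± 0.41, adjusted p = 0.993). Of 13 measured cofactors of FOXP and FOXK proteins none passed in limma, and the median difference was 0.079, with 7 above 0.

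The 3 FOXO genes lay above the filter and had differences above 0 that did not pass. Foxo3 was the steadiest wild-type reading among those given in full, at 4239, 3573, 3358, 4078 and 4160.0, and read 4542, 5094, 7599.9 and 4123 in the mutants. Mutant arrays 1 to 3 were above all wild-type arrays and mutant array 4 was not. The difference was 0.42 ± 0.27 (adjusted p = 0.819, exact permutation p = 0.0317), with 0.50 ± 0.45 at the second probe set. Foxo1 spread widely, at 307, 1705, 3906, 458 and 229 on the wild-type arrays, highest on array 3, and 1627, 2074, 931 and 287 on the mutant arrays. Its difference was 0.30 ± 0.83 (adjusted p = 0.97). The other 2 probe sets above the filter read -0.56 and -0.33, with the opposite sign. Foxo4 read 560.2 to 1275 and 1009 to 1253 (0.13 ± 0.36, adjusted p = 0.97).

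Of 23 measured FOXO targets none passed in limma, and the median difference was 0.21 against 0.043 over all genes. Differences were above 0 for 17 (73.9%) and below for 6, against 53.6% of all genes above 0. The list does not sort targets by whether FOXO raises or lowers them. Cited2, a transcriptional coactivator partner, was the 1 target of the 23 without overlap (4.35%), against 1.47% of all genes with the mutants higher. It read 8876, 11460.5, 9629.7, 8684 and 14599.5 across wild-type arrays and 17932, 19445, 21806 and 19346 across mutant arrays (0.91 ± 0.19 on the log2 scale, limma adjusted p = 0.329, exact permutation p = 0.0159). Over the alternative settings the Cited2 difference was 0.40 to 1.02. The level of the list, taken as the median deviation over its members, was -0.91 on wild-type array 1, -0.033 to 0.083 on the other wild-type arrays and 0.20 to 0.37 on the mutant arrays. Of 15 measured kinases and cofactors upstream of FOXO none passed in limma, 7 were above 0 and the median was -0.074.

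**Figure D3:**
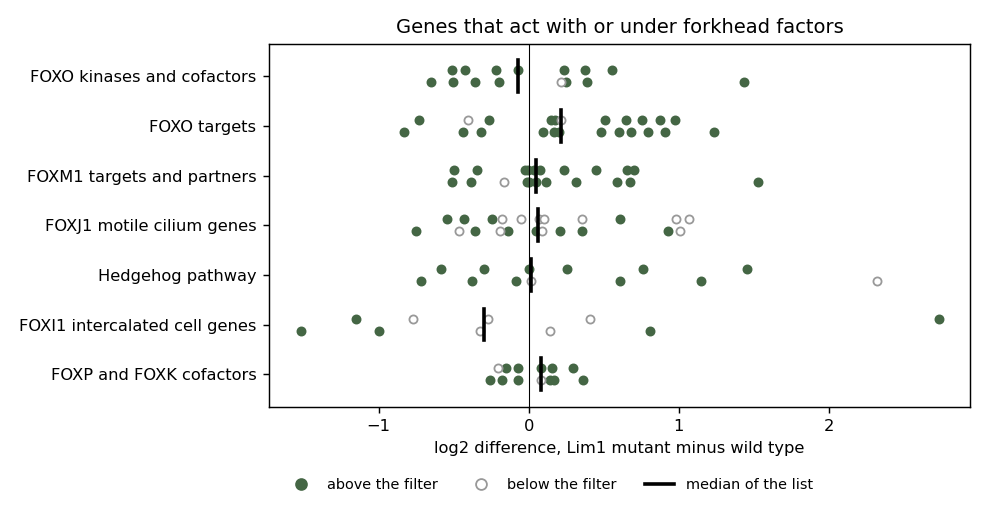
Log2 difference, Lim1 mutant minus wild type, of each measured gene in 7 lists of genes that act with or under forkhead factors, with the list median as a bar; open points lie below the filter. The FOXO targets have the highest median, 0.21, and the FOXI1 genes the lowest, -0.30, and no gene of these lists passed the test.

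The FOXK genes, which repress autophagy genes, were read above the filter in both groups. Foxk2 read 12109, 9819.8, 3811, 6012 and 8090.0 on wild-type and 6849, 12636, 9088 and 12704 on mutant arrays, with overlap and a difference of 0.45 ± 0.34 (adjusted p = 0.859). Its 5 probe sets were all tested and lay between -0.20 and 0.45. Foxk1 read 717, 1575, 410.0, 3221 and 2613 on the wild-type and 2108, 1554, 1650.5 and 496 on the mutant arrays. Mutant array 4 was far below the other mutants, and the difference was -0.13 ± 0.64 (adjusted p = 0.984), with -0.18 at the second tested probe set.

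The remaining members above the filter were dimmer and did not separate the groups. Foxf1, a mesenchymal target of Hedgehog signalling, read 241, 143, 311, 144 and 241 on the wild-type and 349.9, 37.5, 219 and 386 on the mutant arrays, lowest on mutant array 2 (-0.22 ± 0.55, adjusted p = 0.965). The wild-type arrays lay within the range of the mutants. Foxh1, a partner of SMAD proteins in Nodal signalling, read 329, 109, 139, 65.6 and 134 on the wild-type and 119, 166, 124 and 30.6 on the mutant arrays (-0.48 ± 0.50, adjusted p = 0.898). Foxq1, best known from the hair follicle, read 108, 112, 123, 279 and 82.1 on the wild-type and 111, 247, 22.8 and 124 on the mutant arrays (-0.26 ± 0.46, adjusted p = 0.949). Foxl2, the granulosa cell factor, had a difference of 0.71 ± 0.52 (adjusted p = 0.852), with wild-type arrays at 128 to 389 and mutant arrays at 259 to 749. Foxa3 had one of 0.00 ± 0.55 (adjusted p = 0.999). Of 13 measured Hedgehog pathway genes none passed in limma, 8 were above 0 and the median was 0.018. At an unadjusted limma p under 0.05, 3 of the 11 above the filter were higher in the mutants (27.3%), against 4.86% of all genes tested. None was lower at that level, and none of the 13 was without overlap between the groups. The same share was 4.76% for the FOXO targets, 5% for the FOXM1 list and 0 for the other lists. Its dependence on single arrays was not examined.

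The 14 members below the filter were dim on most arrays and were not tested. They were Foxa1 and Foxa2, pioneer factors of endoderm, Foxb1 and Foxb2, Foxd3 of the neural crest and Foxd4, Foxe3 of the lens, Foxf2, Foxi1, Foxj1, Foxl1, Foxn1, Foxn4 and Foxs1. Their mean signals over the 9 arrays ran from 17.3 to 113, their single readings from 6.93 to 530.0, and their differences from -0.78 for Foxb2 to 0.98 for Foxn4. The highest reading was Foxs1 on wild-type array 3, and Foxd3 had its highest, 366, on the same array. Array 3 also had the highest level, as a median deviation, of the neural (1.97), endothelial (1.68), stromal (1.61) and macrophage (0.75) marker lists. The part of such cells in these readings was not tested. Foxa1 was highest on mutant array 2, at 492, against at most 231 elsewhere. Foxi1 read 42.3, 8.71, 15.1, 18.5 and 81.0 on wild-type and 84.3, 24.3, 8.6 and 110.0 on mutant arrays. Of 10 measured intercalated cell genes linked to FOXI1 5 lay below the filter, Atp6v1b1 among them at means of 49.7 and 31.0, and none passed in limma (median difference -0.30, 4 above 0).

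Probe sets of the same gene often differed. Of the 78 forkhead probe sets 43 lay above the filter, and 10 genes had more than 1 of these. In 5 of the 10, Foxk2, Foxm1, Foxn3, Foxo1 and Foxp1, differences of both signs occurred. Foxp1 had the most, with 7 tested probe sets between -0.98 and 1.02, of which 3 were above 0 and 4 below. The 3 tested probe sets of Foxp2 lay between 0.45 and 0.81 and the 2 of Foxj3 at 0.92 and 0.93. Amplification in 2 rounds favours the end of a transcript near its tail, and the positions of the probe sets were not used here, so their order along the transcripts is not given.

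**Figure D4:**
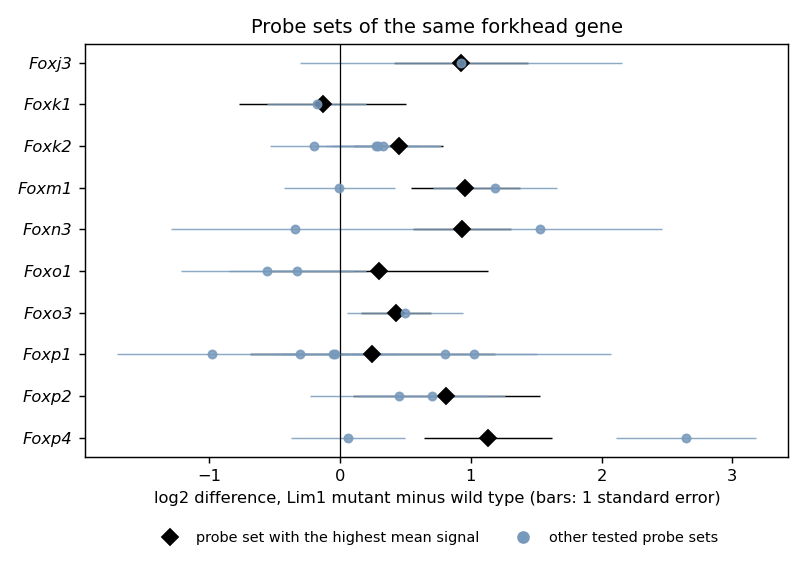
Log2 difference, Lim1 mutant minus wild type, of every probe set above the filter for the 10 forkhead genes with more than 1, with bars of 1 standard error; diamonds are the probe sets that represent the genes. Foxp4 spans 0.058 to 2.65, the latter with wild-type readings all below 42.4, and Foxp1 -0.98 to 1.02, while Foxj3, Foxk1 and Foxo3 probe sets lie close together.

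Across arrays, the members varied more within the wild type, as did the other genes. The SD of the log2 values was larger in the wild type for 14 of the 20 members above the filter, or 70.0%, and for 64.4% of all 13194 genes tested. Its median over the 20 members was 0.65 on wild-type and 0.58 on mutant arrays, and over all genes tested 0.65 and 0.52. Wild-type array 1 held the lowest readings of Foxp1 and Foxp2, and wild-type array 3 the lowest of Foxj2, Foxj3, Foxk1, Foxk2 and Foxn2. Over the 34 members the median deviation from each gene's mean was -0.15 to -0.091 on the wild-type arrays and -0.052 to 0.22 on the mutant arrays. Over the 20 members above the filter it was -0.24 to 0.16 and 0.0096 to 0.30, and the groups overlapped, wild-type array 5 lying above mutant arrays 1 and 4.

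**Figure D5:**
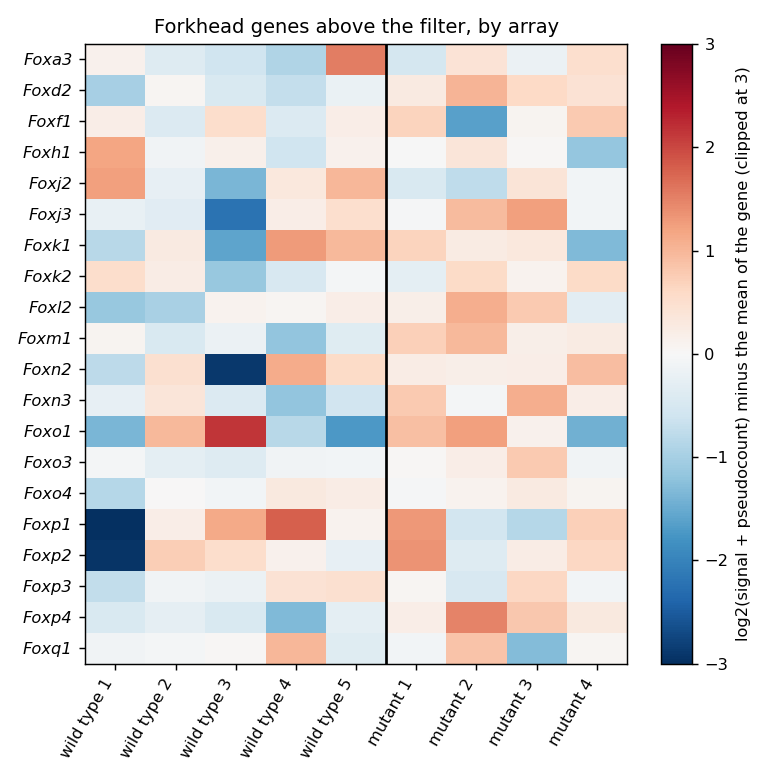
Deviation of log2(signal + 42.4) from the mean of the gene over the 9 arrays, for the 20 forkhead genes above the filter (rows) on wild-type arrays 1 to 5 and mutant arrays 1 to 4 (columns, split by the line); red is above and blue below the mean. Foxd2, Foxm1 and Foxp4 are red on all 4 mutant arrays, and Foxp1 and Foxp2 are deep blue on wild-type array 1.

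Some members lie next to other forkhead genes in the genome (gene order of GRCm38.p6). Foxd2 and Foxe3 are adjacent on chromosome 4. While Foxd2 separated the groups, Foxe3 was dim on all arrays, at 7.94 to 19.6 and 8.69 to 35.3 (difference 0.15 ± 0.18). On chromosome 13 Foxq1, Foxf2 and Foxc1 follow each other, with differences of -0.26, -0.29 and 1.43, and on chromosome 8 Foxf1, Foxc2 and Foxl1, with 1 gene between the first pair, had -0.22, 1.59 and 0.15. Foxc1 and Foxc2 are no members and are given for this order only. On chromosomes 13 and 8 differences of both signs occurred, and on chromosome 4 both lay above 0. Foxf1 and Foxq1 turned sign with single arrays left out, and Foxe3, Foxf2 and Foxl1 lay below the filter. These signs are a description only.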

How the data were processed

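The authors deposited a linear intensity for each probe set and array, made with GCOS per the submitters' processing notes. The sources used here name neither its algorithm nor its scaling. Array medians ranged from 144 to 195, and the mean after trimming 2% at each end was 1500 on every array. Gene names came from the platform annotation, in which 34958 probe sets had 1 symbol, 932 several and 9211 none. Members were those with 1 matching symbol, and choosing probe sets by mean log2 value gave the same ones for all 34.

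Values were transformed to log2(value + 42.4), quantile normalised and fitted with limma 3.58.1 in R 4.3.3 (group as only term, eBayes with trend, two-sided, Benjamini-Hochberg over 27022 probe sets); 64 control probe sets were left out. Differences understate changes of dim genes. The fit was tested on simulated data. Exact permutation tests used log2 values. The number of arrays limits precision. The limma p values set a difference against the spread between these samples, each a pool of about 30 to 50 vesicles.

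Given in full were members without overlap, up to 6 per direction with the largest difference, the 8 with the highest mean signal and 9 fixed by name, 19 in all. Of the other genes, list members without overlap were named, at most 2 per list and direction. Members, lists and rules were chosen with earlier results of these data known. The GC box search was added after the start-site sequences were seen. Alternatives covered normalisation, filter, pseudocount, variance model, array weights, replicate block, probe set averaging and arrays left out.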

Additional observations from a re-analysis of the deposited data

Results flagged for a closer look

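Dixon's test was applied to 38 groups of readings, 2 for each of the 19 members given in full. It marked 1 array in 4 of them, and about 1.9 would be marked by chance (1 in 20). Foxk1 on mutant array 4 read 496, against 1554 to 2108 on the other mutants. Foxn2 on the same array read 4162, against 2474 to 2548. Foxp2 on wild-type array 1 read 49.9, against 555 to 1142 on the other wild-type arrays. Foxp4 on wild-type array 4 read 152, against 309 to 358.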

How the results depend on the processing

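No member passed limma's adjusted p of 0.05 in any of 19 alternatives, and the lowest member value was 0.451, for Foxp4 averaged over probe sets. That average takes in the dimmest Foxp4 probe set, which passed the filter through the mutants alone. The averaged Foxp4 value and its lack of overlap are therefore a description and no support. Foxd2 and Foxp4 differences kept their sign throughout, at 0.86 to 1.14 and 0.84 to 1.34 with single arrays left out, and Foxm1 lay at 0.71 to 1.11. Members without overlap and higher numbered 3 or 4 with single arrays left out, where 3.77 to 5.22% of all genes did not overlap in either direction against 2.42% with all arrays, 4 without quantile normalisation, 2 with median centring and 1 (Foxp4) with genes averaged over probe sets. The median difference of the 34 was 0.27 with the 10th percentile as pseudocount, 0.074 with the 50th, and 0.12 to 0.21 with single arrays left out. Some small differences turned sign, and the cause was not tested. Without wild-type arrays 1 and 3, Foxf1 was 0.084, Foxn2 -0.34, Foxp1 -0.52 and Foxm1 probe set 3 0.26. Without quantile normalisation Foxp3 was 0.038 and Foxm1 probe set 3 0.017, which was 0.043 with array weights. Foxj1 was -0.035 with the 50th percentile as pseudocount, and Foxo1 -0.21 over its probe sets. With single arrays left out, Foxf1 ran from -0.46 to 0.31, Foxi1 from -0.022 to 0.48, Foxj1 from -0.099 to 0.55, Foxk1 from -0.51 to 0.35, Foxo1 from -0.061 to 0.88, Foxp1 from -0.63 to 0.72, Foxp3 from -0.27 to 0.14, Foxq1 from -0.60 to 0.10, Foxp4 probe set 2 from -0.13 to 0.20 and Foxm1 probe set 3 from -0.22 to 0.22. Same-numbered arrays of the groups correlated at -0.11 to 0.054 in their deviations, and 1 of 4 matched its own number best, so the numbers were not taken to pair them. With the number as a replicate block no forkhead gene passed, 0 had an unadjusted p under 0.05, the median was 0.21, 3 members did not overlap, and Foxj1 was -0.097, Foxk1 0.097, Foxo1 -0.054 and Foxp3 0.13. Probe sets near background limit the precision of the dim members.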
